A study of Mus musculus with 12 samples.

Results

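Oxidative phosphorylation (OXPHOS) genes encode the subunits of the respiratory chain and ATP synthase, and they were taken here as every mouse gene whose symbol follows the naming of subunits of complexes I to V. The naming pattern matched 98 symbols, 85 encoded in the nucleus and 13 in the mitochondrial genome. Of these, 89 reached at least 10 counts in 3 or more libraries: 76 nuclear genes and all 13 mitochondrially encoded genes, whose symbols begin with mt-. They stand among 12123 genes that pass the same minimum out of 28030 gene identifiers listed. All 89 entered the tests, which ran across 12086 genes.

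The libraries were made from total RNA of hepatocytes of 12-week-old wild-type (WT) female mice kept on normal chow (lab diet #5053). Hepatocytes were isolated with digitonin, a detergent that lyses cells on the side from which it enters the lobule, as pericentral (PC) cells near the central vein or periportal (PP) cells near the portal tract. All mice had been trained for 3 days to fast for 16 h overnight and feed for 8 h by day, and on the day of the experiment all had food and drinking water with 20% sucrose. Fasted mice were then deprived of both for 24 h, while fed mice were taken 4 h into feeding. This gives 4 groups of 3 libraries, fasted PC, fasted PP, fed PC and fed PP, so that zone (PC against PP) can be compared within each feeding state and fasting (fasted against fed) within each zone. The libraries held 16245846 to 27449412 estimated counts each, and levels are given as CPM, counts per 1000000 counts of a library, scaled with TMM, edgeR's trimmed-mean normalisation.

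In the respiratory chain, complexes I and II pass electrons from NADH and succinate to ubiquinone, complex III passes them to cytochrome c, and complex IV reduces oxygen. Complexes I, III and IV pump protons, and complex V (ATP synthase) uses the proton gradient to make ATP. Each of these complexes except complex II combines subunits from both genomes, so a cell needs transcripts of the nucleus and of the mitochondrion to build them. Hepatocyte mitochondria near the portal tract receive more oxygen, and oxidative metabolism is classically assigned to that zone; fasting makes the liver depend on fatty acid oxidation, whose electrons enter this chain.

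Nuclear members counted 35 genes of complex I, 4 of complex II, 9 of complex III, 12 of complex IV and 16 of complex V. Mitochondrially encoded members counted 7 of complex I, 1 of complex III, 3 of complex IV and 2 of complex V. The remaining 9 matching symbols fell under the minimum: Atp5g2, Cox7b2, Cox8b and Cox8c were listed at 0 in every library, and Cox4i2, Cox6a2, Cox6b2, Cox6c2 and Ndufa4 had at most 21 counts in any library. Several of these are known as isoforms of other tissues, such as muscle (Cox6a2, Cox8b), lung (Cox4i2) and testis (Cox6b2, Cox7b2, Cox8c). Ndufa4 and Atp5g2, in contrast, are used by most cells, and their levels are given only as listed.

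The mitochondrial genome is transcribed as long precursors that are cut into separate mRNAs, and the pair mt-Atp8 and mt-Atp6 stays on a shared mRNA with overlapping reading frames. The stretch at that overlap is shown because a read from it belongs to both genes, so their counts are not independent. It lies at chrM:7907-7989 on the plus strand of GRCm38, and the 43 capital letters (chrM:7927-7969) are the bases that both genes hold.
mt-Atp8 and mt-Atp6: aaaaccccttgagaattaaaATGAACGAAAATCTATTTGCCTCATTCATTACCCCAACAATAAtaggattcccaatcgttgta
mt-Nd4l and mt-Nd4 overlap in the same manner by 7 bases. The library kit named in the labels does not mark strand, so reads of mt-Nd6, which is encoded on the other strand from the remaining 12 mt- genes, cannot be told apart from transcripts antisense to it. Copies of mitochondrial sequence in the nuclear genome share 98.1% to 100% of the 31-base words of mt-Atp6, mt-Co2, mt-Co3, mt-Nd3 and mt-Nd4l. The highest count of such a copy with an entry here was 60.2 in a library (Gm13340, which shares 45.2% of the words of mt-Co1), and copies without an entry were not analysed here.

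Before the comparisons, 2 libraries have to be named. Fasted PC replicate 1 stood apart in zone markers: Glul, the glutamine synthetase of the cells next to the central vein, had 172.0 CPM in it, against 3639 and 2353 CPM for replicates 2 and 3. The periportal gene Hal had 579 CPM in it, against 69.9 and 108.6 CPM for replicates 2 and 3. Its Cyp2e1 level, 11794 CPM, was still far above the 120.3 to 754 CPM of fasted PP libraries. Fasted PP replicate 1 had the highest summed level of the nuclear OXPHOS genes of all 12 libraries. The hepatocyte markers summed to 79284 to 159538 CPM over all libraries, and the 10 pericentral markers listed summed to 13949 to 24564 CPM in fasted PC and 15957 to 17181 CPM in fed PC libraries, against 374 to 1197 CPM in fasted PP and 1074 to 2137 CPM in fed PP libraries. Cyp2e1 held most of this sum in PC libraries. The 11 periportal markers summed to 7718 to 9502 CPM in fasted PC and 16260 to 22299 CPM in fasted PP libraries. In fed mice they summed to 2963 to 3633 CPM in PC and 9001 to 11253 CPM in PP libraries. Pck1 and Ass1 held most of this sum in fasted PC libraries. Pck1 had 4382, 4672 and 4516 CPM in fasted PC, against 258, 80.5 and 45.1 CPM in fed PC libraries. The summed markers of other cell types were low (endothelial 7.34 to 27.5 CPM, Kupffer 0.927 to 9.63 CPM), with an erythroid sum of 440.6 CPM in fasted PC replicate 2 as the highest.

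Per kilobase of each gene's longest coding transcript in the annotation, every mt- gene was above every nuclear gene. The median over 12 libraries was 5719 CPM per kb for the 13 mt- genes, ranging between 1520 CPM per kb for mt-Nd6 and 17142 CPM per kb for mt-Co1, the catalytic subunit of complex IV. For the 76 nuclear genes the median was 119.8 CPM per kb, and the highest were Atp5b, the catalytic beta subunit of ATP synthase, at 735 CPM per kb, Cox6a1 at 699 CPM per kb and Cox4i1 at 600.5 CPM per kb. Over the length of all annotated exons, chosen after seeing the data, the mt- median was the same, the nuclear median was 72.6 CPM per kb, and Cox6a1 at 568 CPM per kb stood above Atp5b at 332 and Cox4i1 at 296 CPM per kb; every mt- gene was again above every nuclear gene. Cox6a1 and Cox4i1 are the widely expressed isoforms of complex IV subunits. At the other end, 4 nuclear genes averaged under 5 CPM: Atp5s, Cox7a1, Cox5b and Ndufa9. Cox5b and Ndufa9 are subunits that cells with mitochondria are known to use, yet they had only 2.52 to 34.4 and 0 to 36.3 estimated counts per library, so values of these genes rest on few counts. The annotation behind the counts is not given in the sources used here, and whether reads of these genes were assigned elsewhere was not tested.

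**Figure D1:**
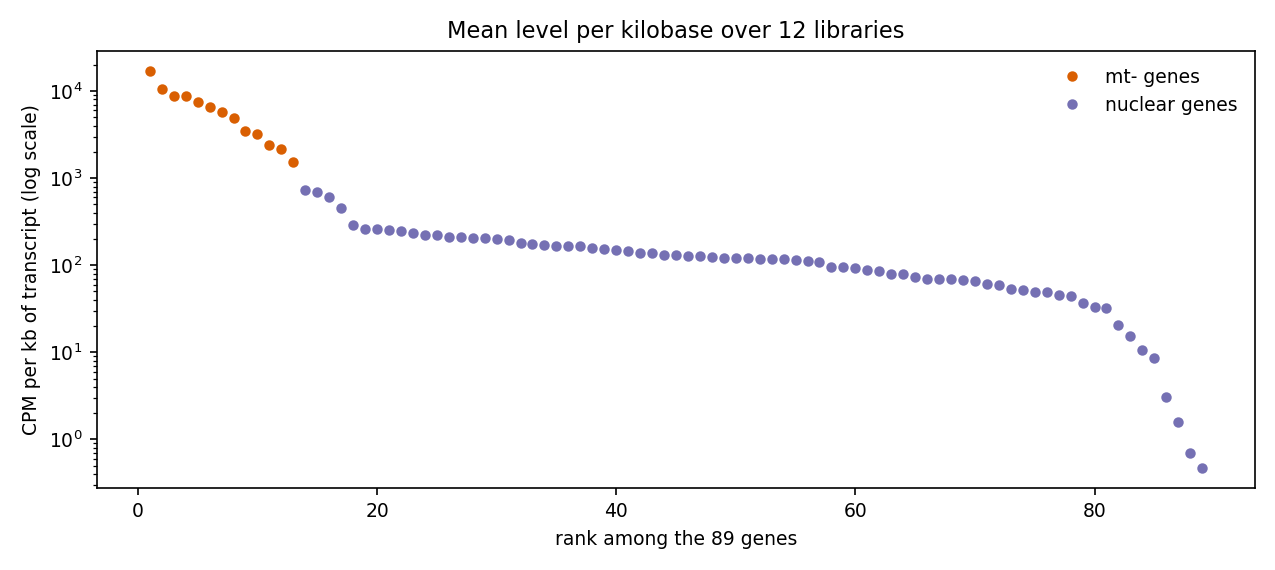
Mean level per kilobase of the longest coding transcript over 12 libraries (vertical axis, CPM per kb, log scale) of the 89 OXPHOS genes ordered by level (horizontal axis, rank). Every mt- gene lies above every nuclear gene, and the 4 genes at the right end are those under 5 CPM.

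Summed over the 13 genes, mt- transcripts were lower in PC than in PP libraries in both feeding states. The sums were 74926, 61632 and 74080 CPM in fasted PC libraries, against 104597, 102479 and 91623 CPM in fasted PP libraries. In fed mice they were 72858, 75639 and 66915 CPM in PC libraries, against 88230, 83984 and 89288 CPM in PP libraries. No PC library reached any PP library of the same feeding state. The mean share of all counts was 7.02% ± 0.63 in fasted PC, 9.39% ± 0.45 in fasted PP, 7.58% ± 0.39 in fed PC and 8.72% ± 0.48 in fed PP libraries (SD, n = 3 each).

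The 76 nuclear genes together showed a smaller difference in the same direction. Their sums were 10968, 10915 and 11049 CPM in fasted PC libraries, against 14106, 11442 and 11979 CPM in fasted PP libraries. In fed mice they were 9837, 10004 and 10433 CPM in PC libraries, against 12087, 11958 and 10813 CPM in PP libraries. Again the PC and PP libraries did not overlap within a feeding state. In fasted mice the gap lay between 11049 CPM in PC and 11442 CPM in PP, with fasted PP replicate 1 far above it at 14106 CPM. The ratio of the mt- sum to the nuclear sum was 6.83, 5.65 and 6.70 in fasted PC libraries, against 7.41, 8.96 and 7.65 in fasted PP libraries, with no overlap. In fed mice it was 7.41, 7.56 and 6.41 in PC libraries, against 7.30, 7.02 and 8.26 in PP libraries, and these ranges overlapped.

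CPM are shares of a library, so fewer mitochondria or cells of a kind and fewer transcripts per cell cannot be told apart. Albumin mRNA, the most abundant hepatocyte transcript, moved with zone as well: it took 7.67% ± 0.90 of counts in fasted PC and 12.6% ± 0.63 in fasted PP, 7.05% ± 0.21 in fed PC and 11.4% ± 0.81 in fed PP libraries (SD, n = 3 each). The cholangiocyte marker list also moved with zone, at 13.5 to 25.1 CPM in fasted PC against 33.7 to 37.3 CPM in fasted PP libraries, and 23.7 to 27.9 CPM in fed PC against 36.1 to 47.3 CPM in fed PP libraries. Within this list, Krt19 was at most 0.729 CPM and Epcam at most 0.547 CPM, while Krt7 reached 19.66 CPM and overlapped between zones in both feeding states. Sox9 was at 1.384 to 2.922 CPM in PC and 4.701 to 12.69 CPM in PP libraries. Spp1 was at most 10.33 CPM in PC and at least 10.53 CPM in PP libraries. The part of albumin mRNA or of cholangiocytes in the differences below was not tested.

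**Figure D2:**
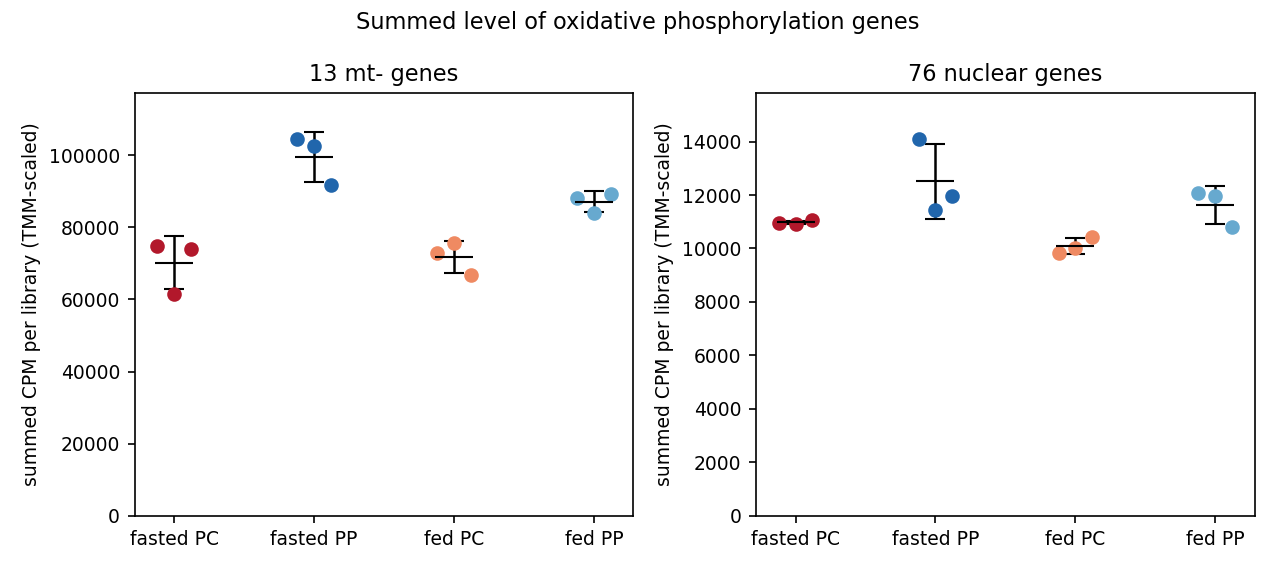
Summed level (vertical axis, CPM per library) of the 13 mt- genes (left) and the 76 nuclear genes (right) in the 4 groups. Points are libraries, and black bars are the group mean and SD (n = 3). On the TMM-scaled CPM shown, PC libraries lie below PP libraries of the same feeding state in both panels, with the wider gap for mt- genes in fasted mice.

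In fasted mice, all 13 mt- genes had lower levels in PC than in PP hepatocytes, and 8 passed the test (edgeR's quasi-likelihood test, Benjamini-Hochberg adjusted p under 0.05 over all genes tested). Of all genes tested, 3.05% were called lower in this comparison. The median log2 fold change of the 13 was -0.51, against -0.00 over all genes. Libraries did not overlap for 12 of the 13, mt-Nd6 being the exception, where 10.6% of all genes had every PC library below every PP library.

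Complex I members with calls were mt-Nd1, mt-Nd3 and mt-Nd4, core subunits of its membrane arm. mt-Nd1 (chrM:2751-3707) had 5279, 4547 and 4936 CPM in fasted PC libraries, against 8102, 8047 and 7744 CPM in fasted PP libraries. The highest PC library stood well below the lowest PP library, and the log2 fold change was -0.69 ± 0.11 (SE; adjusted p = 0.00252, edgeR). mt-Nd3 had 673, 415 and 577 CPM in PC libraries, against 1127, 964 and 812 CPM in PP libraries, the largest fold change of the group at -0.80 ± 0.19 (adjusted p = 0.0263, edgeR). mt-Nd4 had 6044, 5019 and 6269 CPM in PC libraries, against 8629, 8357 and 7489 CPM in PP libraries (-0.50 ± 0.12, adjusted p = 0.0316, edgeR). For these 2 genes fasted PC replicate 2 was the lowest library.

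The catalytic core of complex IV was lower as a whole. mt-Co1 had 24302, 18803 and 22766 CPM in fasted PC libraries, against 31395, 33752 and 28844 CPM in fasted PP libraries (-0.51 ± 0.12, adjusted p = 0.0223, edgeR). mt-Co2, which receives electrons from cytochrome c, had 6401, 5015 and 6511 CPM in PC libraries, against 10103, 8825 and 8195 CPM in PP libraries (-0.60 ± 0.13, adjusted p = 0.0147, edgeR). PC and PP libraries were separate for both genes. mt-Co3 had 5974, 4901 and 6191 CPM in PC libraries, against 9461, 8493 and 6903 CPM in PP libraries (-0.54 ± 0.14, adjusted p = 0.0406, edgeR), with fasted PP replicate 3 closest to the PC libraries.

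The ATP synthase members gave calls as well. mt-Atp8, a small membrane subunit, had 632, 521 and 487 CPM in fasted PC libraries, against 838, 914 and 863 CPM in fasted PP libraries (-0.67 ± 0.12, adjusted p = 0.00630, edgeR). mt-Atp6, which forms the proton path beside the c-ring, had 4913, 3652 and 4637 CPM in PC libraries, against 7711, 6602 and 5433 CPM in PP libraries (-0.58 ± 0.16, adjusted p = 0.0499, edgeR). Groups were separate for both, and the call on mt-Atp6 lies at the threshold.

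The other 5 mt- genes did not pass the test. mt-Nd2 was at -0.42 ± 0.12 (adjusted p = 0.0553, edgeR), mt-Nd6 at -0.42 ± 0.15, mt-Cytb, the cytochrome b of complex III, at -0.41 ± 0.13, mt-Nd4l at -0.36 ± 0.14 and mt-Nd5 at -0.21 ± 0.14 (log2 fold change ± SE). mt-Nd5 had the smallest difference, with 4159, 4151 and 4223 CPM in fasted PC libraries, against 4528, 4956 and 5055 CPM in fasted PP libraries.

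Which mt- genes passed depended on the libraries, while all 13 stayed negative in the 20 alternative settings tried. Leaving out fasted PC replicate 2, the library with the lowest mt- sum and the highest erythroid sum, left 2 calls (mt-Nd1 and mt-Atp8) and a median of -0.41. Leaving out fasted PP replicate 1 left the same 2 genes called and a median of -0.47, and leaving out fasted PC replicate 1 gave 9 calls and a median of -0.58. Dropping replicate 3 of the fasted PC group, or replicate 2 of the fasted PP group, left 3 calls (mt-Nd1, mt-Atp8 and mt-Co2), and without fed PC replicate 1, which enters through the shared spread, 5. A fit on the 6 fasted libraries alone also called mt-Nd1 and mt-Atp8, and DESeq2 called 10 lower, where it called 4.02% of all genes lower and 4.35% higher.

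In fed mice all 13 mt- genes were again lower in PC than in PP hepatocytes, by a median log2 fold change of -0.25 against -0.01 over all genes. Here mt-Nd1 alone passed the test, where 2.47% of all genes were called lower. It had 5028, 5346 and 4572 CPM in fed PC libraries, against 7145, 6515 and 7656 CPM in fed PP libraries, and the groups did not overlap. Its log2 fold change was -0.51 ± 0.11 (adjusted p = 0.0174, edgeR), and leaving out any of 5 of the 6 fed libraries raised its adjusted p above 0.05, to at most 0.0962; without fed PP replicate 2 the call held. DESeq2 also called mt-Nd1 alone, where it called 3.55% of all genes lower and 3.48% higher. Libraries did not overlap for 6 of the 13 genes (mt-Nd1, mt-Nd2, mt-Co1, mt-Co2, mt-Co3 and mt-Atp6), against 13.1% of all genes. mt-Cytb and mt-Nd4l were nearest to no difference, at -0.09 ± 0.13 and -0.08 ± 0.14.

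Fasting gave no call on a mt- gene in either zone with edgeR, while DESeq2 called 2 in PP cells. In PC hepatocytes 0 of 13 passed edgeR's test, 1 had an unadjusted p under 0.05 (mt-Atp8) and DESeq2 called 0, where 11.1% of all genes were called higher and 10.2% lower. The 13 genes split into 5 higher and 8 lower in fasted than in fed PC libraries, with a median log2 fold change of -0.04, which turned to 0.04 without fasted PC replicate 2; with library totals in place of TMM, 2 were higher and 11 lower. DESeq2 called 12% of all genes higher and 11.4% lower. mt-Atp8 had 632, 521 and 487 CPM in fasted PC libraries, against 639, 690 and 653 CPM in fed PC libraries, a narrow gap without overlap (-0.27 ± 0.12, adjusted p = 0.140, edgeR). It was called without fasted PC replicate 1.

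In PP hepatocytes 0 of 13 passed edgeR's test, 2 had an unadjusted p under 0.05 (mt-Nd6 and mt-Cytb) and DESeq2 called these 2, where 8.39% of all genes were called higher and 9.5% lower by edgeR, and 9.71% higher and 10.3% lower by DESeq2. All 13 were higher in fasted than in fed PP libraries, by a median log2 fold change of 0.21. mt-Nd6 had 1116, 1089 and 862 CPM in fasted PP libraries, against 786, 651 and 800 CPM in fed PP libraries (0.46 ± 0.15, adjusted p = 0.0517, edgeR), and was called with RLE size factors, with scaling without mt- genes and with the replicate block. mt-Cytb had 13411, 12302 and 10823 CPM in fasted PP libraries, against 10079, 8762 and 9839 CPM in fed PP libraries (0.35 ± 0.13, adjusted p = 0.0798, edgeR). Fasted and fed libraries were separate for these and for 5 further mt- genes (mt-Nd1, mt-Nd2, mt-Nd4, mt-Co2 and mt-Atp8), against 16.8% of all genes.

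Whether the zone difference itself changed with fasting was tested as an interaction. The mt- genes gave 0 calls (edgeR), 1 unadjusted p under 0.05 (mt-Atp8) and 0 calls with DESeq2, and 0% of all genes were called in either direction with edgeR, and 0.0375% higher and 0.045% lower with DESeq2. All 13 interaction estimates were negative, that is, the PC minus PP difference was lower in fasted than in fed mice, with a median of -0.27 on the log2 scale. They ranged between -0.50 ± 0.27 for mt-Nd3 and -0.05 ± 0.20 for mt-Nd5. Since the zone difference passed the test for 8 genes in fasted mice and 1 in fed mice, this test of the difference, and not those counts, is the comparison of the feeding states. The 13 genes come from shared precursors and the same libraries, so their common sign is not 13 separate observations.

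**Figure D3:**
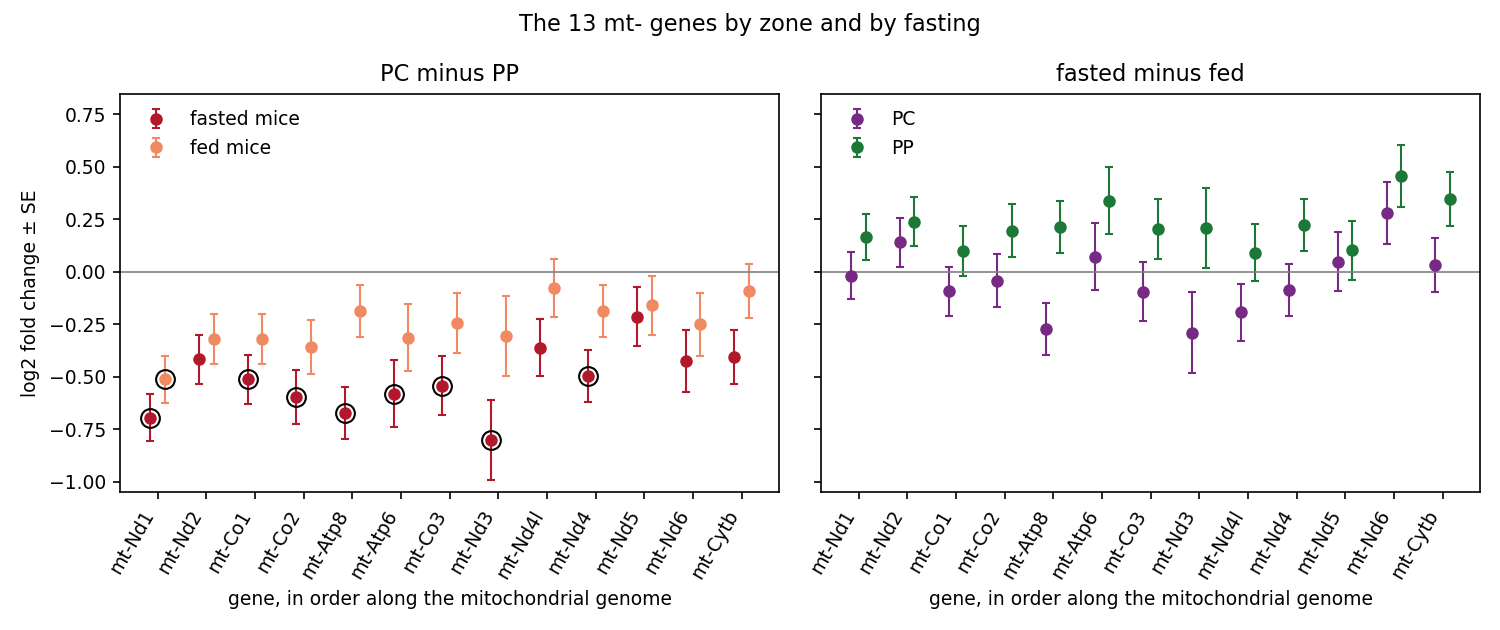
Log2 fold change with SE (vertical axis) of the 13 mt- genes in their order along the mitochondrial genome (horizontal axis), for PC minus PP in fasted and fed mice (left) and fasted minus fed in PC and PP cells (right). Black rings mark genes called at an adjusted p under 0.05. Every zone value is below 0, with 8 rings in fasted and 1 in fed mice, and every fasting value in PP cells is above 0 without a ring.

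Nuclear OXPHOS genes showed the zone difference at about the same size in both feeding states. In fasted mice 67 of 76 were lower in PC than in PP hepatocytes, with a median log2 fold change of -0.20, and 4 passed the test as lower and 0 as higher (edgeR), where 3.05% of all genes were called lower and 3.35% higher. Libraries did not overlap for 28 of the 76, all lower in PC, against 10.6% of all genes with every PC library below. In fed mice 69 of 76 were lower in PC, with a median of -0.20, and 3 passed as lower and 0 as higher, where 2.47% of all genes were called lower and 2.24% higher. There the libraries did not overlap for 34 lower genes and 1 higher gene (Ndufs5), against 13.1% and 12.9% of all genes. These counts of edgeR calls are close to the background, while those of DESeq2, given below, are above it. The shift of the medians is smaller than that of the mt- genes in fasted mice.

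Fasted PP replicate 1 weighed on the fasted comparison: without it the median was -0.10 and 1 gene was called (Ndufa1), and without it and fasted PC replicate 1 the median was -0.10 and the call was Sdhd. Without fasted PC replicate 1 the median was -0.21 and 3 genes were called (Ndufa1, Sdhd and Uqcrfs1). DESeq2 called 10 of 76 lower in fasted mice, the 4 of edgeR among them, where it called 4.02% of all genes lower and 4.35% higher. In fed mice it called 8 of 76 lower, with the 3 of edgeR among them, where it called 3.55% of all genes lower and 3.48% higher. With library totals in place of TMM, the counts of lower genes were 59 of 76 in fasted and 60 of 76 in fed mice.

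The complex I gene Ndufa1 (chrX:37187588-37191163), an accessory subunit of the membrane arm, had 48.0, 49.4 and 42.6 CPM in fasted PC libraries, against 90.5, 67.2 and 61.7 CPM in fasted PP libraries. The PC libraries lay below all PP libraries, of which replicate 1 was highest, and the log2 fold change was -0.65 ± 0.14 (adjusted p = 0.0182, edgeR). The fed libraries had 42.7, 40.5 and 38.6 CPM in PC cells, against 60.8, 57.6 and 46.9 CPM in PP cells (-0.44 ± 0.14, adjusted p = 0.117, edgeR). The call in fasted mice was lost without fasted PC replicate 2 or 3. It was also lost without fasted PC and fasted PP replicate 1 together, and with only the groups compared. The adjusted p reached at most 0.0658 over all settings.

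Subunits of the catalytic steps of complex I did not pass. Ndufv1, which binds NADH and the flavin, was at -0.20 ± 0.10 in fasted and -0.22 ± 0.10 in fed mice (PC minus PP, log2 fold change ± SE), with PC libraries below PP libraries in both. Ndufs1, the largest iron-sulfur subunit, was at -0.34 ± 0.11 in fasted and -0.14 ± 0.11 in fed mice. The accessory subunits Ndufa7 and Ndufb3 had the highest values in fasted mice, 0.19 ± 0.17 and 0.11 ± 0.14, and Ndufa7 and Ndufs5 in fed mice, 0.22 ± 0.17 and 0.15 ± 0.11; none passed the test.

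All 4 complex II genes, which have no mt- partner, had lower mean levels in PC than in PP libraries in both states, and 0 of 4 passed edgeR's test (2 had an unadjusted p under 0.05 in each state; DESeq2 called Sdhd in both). Sdhd, a membrane anchor, had 196, 154 and 154 CPM in fasted PC libraries, against 249.5, 220.5 and 190.3 CPM in fasted PP libraries, with fasted PC replicate 1 inside the PP range (-0.39 ± 0.12, adjusted p = 0.0919, edgeR). Sdhd in fed mice had 156, 153 and 153 CPM in PC libraries, against 208, 213 and 194 CPM in PP libraries, without overlap (-0.41 ± 0.12, adjusted p = 0.0855, edgeR). Sdha, the flavoprotein that oxidises succinate, differed least in fasted mice, at -0.11 ± 0.10, and was at -0.20 ± 0.10 in fed mice. Sdhb, the iron-sulfur subunit, was at -0.27 ± 0.11 in fasted and -0.18 ± 0.11 in fed mice, and the other anchor, Sdhc, at -0.20 ± 0.10 and -0.28 ± 0.10.

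Complex III gave 0 calls among 9 nuclear genes in each state with edgeR (5 with an unadjusted p under 0.05 in fasted and 4 in fed mice), while DESeq2 called Uqcrfs1 in both and Uqcr10 in fasted mice. Uqcrfs1, the Rieske iron-sulfur protein, had 187, 155 and 159 CPM in fasted PC libraries, against 243, 203 and 201 CPM in fasted PP libraries (-0.37 ± 0.11, adjusted p = 0.0706, edgeR). Uqcrfs1 in fed mice had 143, 154 and 150.5 CPM in PC libraries, against 192, 199 and 181 CPM in PP libraries (-0.35 ± 0.11, adjusted p = 0.0969, edgeR). Cyc1, the cytochrome c1 subunit, was at -0.31 ± 0.12 in fasted and -0.22 ± 0.12 in fed mice, and the core subunit Uqcrc1 at -0.23 ± 0.10 and -0.24 ± 0.10. PC and PP libraries were separate for all 3 genes in both states.

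Complex IV held 3 of the 4 nuclear calls in fasted mice. Cox5a (chr9:57521274-57532426), a subunit on the matrix side, had 77.0, 79.6 and 79.3 CPM in fasted PC libraries, against 118, 97.0 and 96.1 CPM in fasted PP libraries (-0.40 ± 0.11, adjusted p = 0.0472, edgeR). Cox5a in fed mice had 72.5, 78.9 and 76.9 CPM in PC libraries, against 99.4, 107 and 86.1 CPM in PP libraries (-0.36 ± 0.11, adjusted p = 0.0893, edgeR). The groups were separate in both states, and the call in fasted mice was lost in 13 of 20 alternative settings, where the adjusted p reached 0.185. Cox7b (chrX:106015700-106022450), a small membrane subunit, had 109.5, 108.6 and 112 CPM in fasted PC libraries, against 180, 134 and 145 CPM in fasted PP libraries (-0.48 ± 0.12, adjusted p = 0.0400, edgeR). Cox7b in fed mice had 101.4, 104 and 110.4 CPM in PC libraries, against 162, 143 and 125 CPM in PP libraries (-0.44 ± 0.12, adjusted p = 0.0642, edgeR). Here too no PC library reached a PP library, and the call was lost in 12 of 20 alternative settings, with adjusted p up to 0.155.

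Cox7a1 is the isoform of complex IV subunit VIIa known from heart and skeletal muscle, and its level here was low. It had 0.515, 0.782 and 0.166 CPM in fasted PC libraries, against 3.01, 0.791 and 3.88 CPM in fasted PP libraries, which rest on 9.93, 13 and 3 counts against 60, 18.2 and 84.8 counts. Replicate 2 of fasted PP lay just above the highest PC library (-2.40 ± 0.58, adjusted p = 0.0270, edgeR). Dropping replicate 1 or 3 of either fasted group ended the call, as did the replicate number as a block and a fit of only the groups compared. Cox7a1 in fed mice had 0.675, 0.626 and 0.539 CPM in PC libraries, against 1.92, 2.72 and 2.24 CPM in PP libraries, without overlap (-1.90 ± 0.55, adjusted p = 0.0730, edgeR). The liver isoform Cox7a2 was at 67.5 to 74.4 CPM in fasted PC and 65.9 to 95.8 CPM in fasted PP libraries and did not differ beyond its spread (-0.13 ± 0.14, adjusted p = 0.687, edgeR). Per kilobase, the mean over all libraries was 3.07 CPM per kb for Cox7a1 and 111.0 CPM per kb for Cox7a2.

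Cox5b, a zinc-binding subunit on the matrix side, was called lower in PC in fed mice (-2.60 ± 0.58, adjusted p = 0.0216, edgeR) on very few counts, with the limit on read assignment given for it beside its level. Its estimated counts were 2.52, 5.80 and 2.68 in fed PC libraries, against 15.0, 34.4 and 11.1 in fed PP libraries. In fasted mice they were 10.9, 18.9 and 12.9 in PC libraries, against 15.1, 7.97 and 10.8 in PP libraries, and the groups overlapped (0.60 ± 0.53, adjusted p = 0.603, edgeR). The call was lost without any fed PC library or fed PP replicate 2.

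Complex V gave its calls in fed mice. Atp5g1 (chr11:96068852-96075670) is among the genes that encode the same subunit c of the rotating ring, with different import peptides. It had 168, 174 and 203 CPM in fed PC libraries, against 272, 275 and 246 CPM in fed PP libraries (-0.54 ± 0.12, adjusted p = 0.0178, edgeR). In fasted mice it had 165, 177 and 174 CPM in PC libraries, against 259, 198 and 226 CPM in PP libraries (-0.41 ± 0.12, adjusted p = 0.0615, edgeR). PC and PP libraries were separate in both states. Its paralog Atp5g3 overlapped between zones, with -0.20 ± 0.13 in fed and -0.18 ± 0.13 in fasted mice; the difference between the paralogs was not tested. Per kilobase of the longest coding transcript, which is long for Atp5g1, the means were 44.9 CPM per kb for Atp5g1 and 458 CPM per kb for Atp5g3, and over all annotated exons they were 43.1 and 152 CPM per kb.

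Atp5o (chr16:91925214-91931687), the stalk subunit that gives oligomycin sensitivity, had 110.6, 101.3 and 117 CPM in fed PC libraries, against 162, 154 and 139 CPM in fed PP libraries (-0.47 ± 0.11, adjusted p = 0.0264, edgeR). In fasted mice it had 135, 129.5 and 128.5 CPM in PC libraries, against 189, 152 and 156 CPM in PP libraries (-0.34 ± 0.11, adjusted p = 0.0991, edgeR). The groups were separate in both states. The catalytic subunits had smaller differences that did not pass: Atp5a1 was at -0.24 ± 0.10 in fasted and -0.23 ± 0.10 in fed mice, and Atp5b at -0.21 ± 0.11 and -0.22 ± 0.11. Leaving out replicate 1 or 2 of either fed group ended the calls on Atp5g1 and Atp5o, and leaving out fed PC replicate 3 that on Atp5o.

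**Figure D4:**
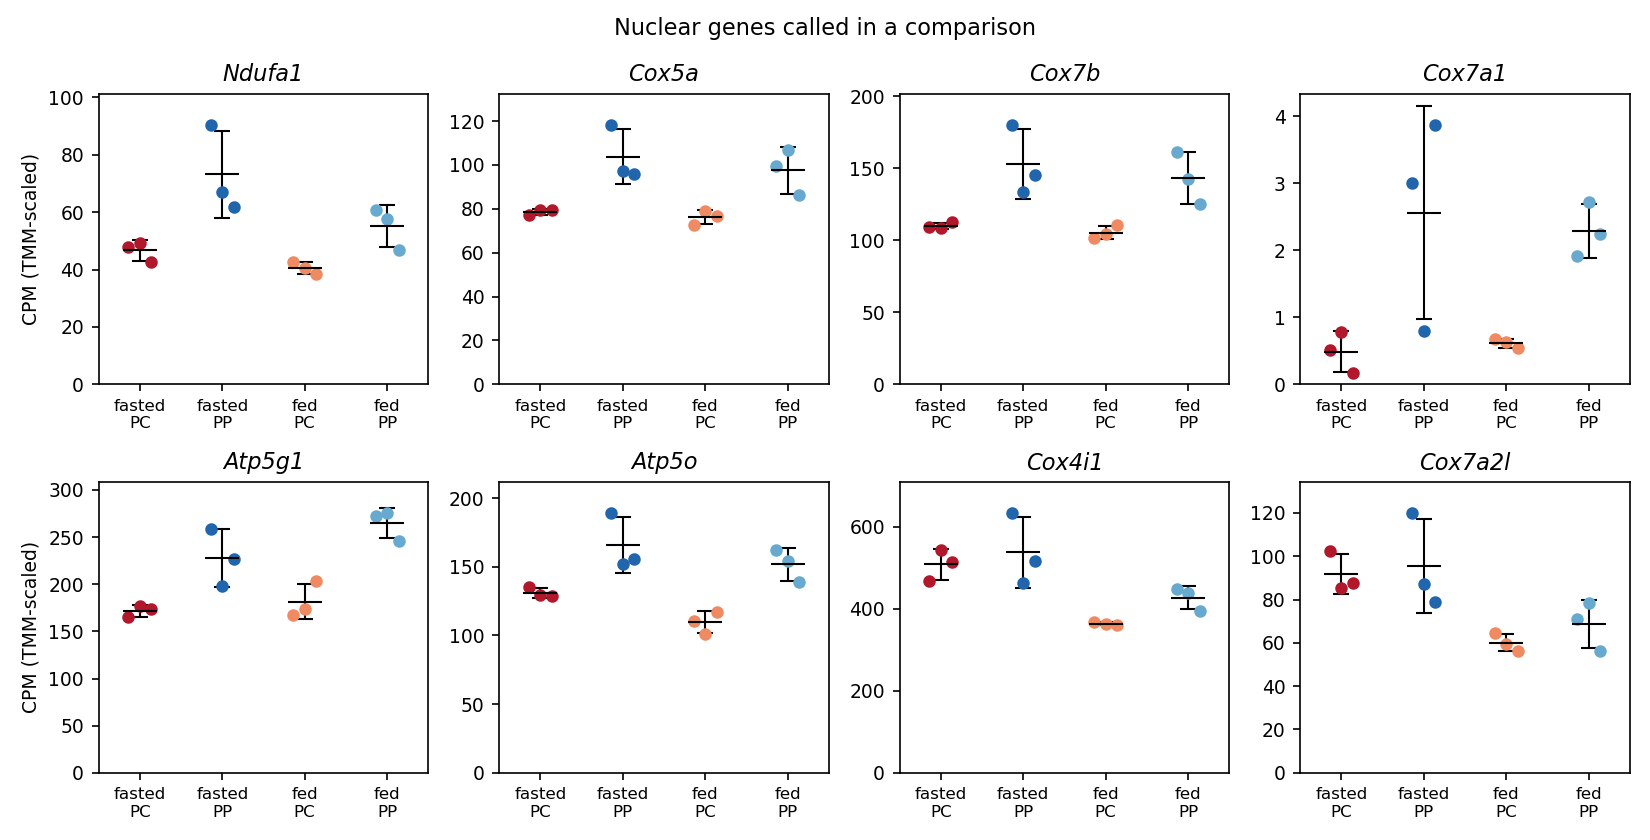
Level per library (vertical axis, CPM from 0) of 8 nuclear OXPHOS genes called in a comparison, in the 4 groups; black bars are the group mean and SD (n = 3), and Cox5b is left out for its few counts. Ndufa1, Cox5a, Cox7b, Cox7a1, Atp5g1 and Atp5o are lower in PC than in PP libraries, and Cox4i1 and Cox7a2l are higher in fasted than in fed PC libraries.

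Fasting moved nuclear OXPHOS genes little. In PC hepatocytes 62 of 76 were higher in fasted than in fed libraries, with a median log2 fold change of 0.12 against 0.00 over all genes, and 3 were called higher and 0 lower (edgeR), where 11.1% of all genes were called higher and 10.2% lower. Fasted libraries were all above fed libraries for 29 of the 76, against 21.5% of all genes, and for 0 all below, against 20.2%. With library totals in place of TMM, 44 of 76 were higher, and the same 3 genes were called. The 3 were all genes of complex IV. DESeq2 called these and Atp5d, Cox6a1 and Ndufs7, where it called 12% of all genes higher and 11.4% lower.

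Cox4i1 (chr8:120668222-120674207), the common isoform of subunit IV, had 469, 543 and 514 CPM in fasted PC libraries, against 368, 363 and 361 CPM in fed PC libraries. The fed libraries were nearly equal and all below the fasted ones (0.48 ± 0.12, adjusted p = 0.0147, edgeR). In PP cells it had 634, 462 and 517 CPM in fasted libraries, against 449, 438 and 396 CPM in fed libraries, which did not overlap but did not pass (0.33 ± 0.12, adjusted p = 0.0823, edgeR). Cox7a2l (chr17:83501918-83517330), which takes part in joining complexes III and IV into supercomplexes, had 102.2, 85.2 and 87.6 CPM in fasted PC libraries, against 64.4, 59.5 and 56.4 CPM in fed PC libraries (0.61 ± 0.16, adjusted p = 0.0173, edgeR). In PP cells it had 119.9, 87.3 and 78.7 CPM in fasted libraries, against 70.9, 78.4 and 56.4 CPM in fed libraries (0.47 ± 0.16, adjusted p = 0.0585, edgeR). Fasted and fed libraries were separate in both zones for both genes. In PC cells the Cox7a2l call was lost without fasted replicate 1 and the Cox4i1 call without fasted replicate 2, and both without fed replicate 2 or 3.

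Cox5b was the other call, with 10.9, 18.9 and 12.9 estimated counts in fasted PC against 2.52, 5.80 and 2.68 in fed PC libraries (2.38 ± 0.59, adjusted p = 0.0128, edgeR), on the few counts named above, and its call was lost without fasted PC replicate 2 or fed PC replicate 1. At the low end were Ndufs1, with 112, 95.9 and 97.6 CPM in fasted PC libraries against 109.3, 124 and 131 CPM in fed PC libraries (-0.25 ± 0.11, adjusted p = 0.136, edgeR), and the ATP synthase subunit Atp5k, at -0.18 ± 0.13. Fasted and fed libraries overlapped for both. The other complex IV isoform genes did not pass: Cox6a1 was at 0.36 ± 0.13, Cox8a at 0.22 ± 0.11, Cox6b1 at 0.05 ± 0.12, Cox7a2 at -0.04 ± 0.14 and Cox7a1 at -0.35 ± 0.60.

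In PP hepatocytes 65 of 76 were higher in fasted than in fed libraries, with a median of 0.11 against 0.00 over all genes, and 0 were called with edgeR, where 8.39% of all genes were called higher and 9.5% lower. Of the 76, 8 had an unadjusted p under 0.05, and DESeq2 called 4 higher, among them Cox4i1, Cox7a2l and Ndufa1. Of all genes, DESeq2 called 9.71% higher and 10.3% lower there. The median was 0.02 without fasted PP replicate 1, and with library totals in place of TMM 47 of 76 were higher. Fasted libraries were all above fed libraries for 7 genes, against 16.8% of all genes, and for 0 all below, against 17.8%. Cox7a2l and Ndufa1 had the highest values, at 0.47 ± 0.16 and 0.41 ± 0.14, and Atp5g1 and Ndufb10 the lowest, at -0.21 ± 0.12 and -0.16 ± 0.11. The nuclear genes gave 0 interaction calls with edgeR and with DESeq2, 1 unadjusted p under 0.05 (Cox5b) and a median of -0.01, which was 0.06 without fasted PP replicate 1.

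**Figure D5:**
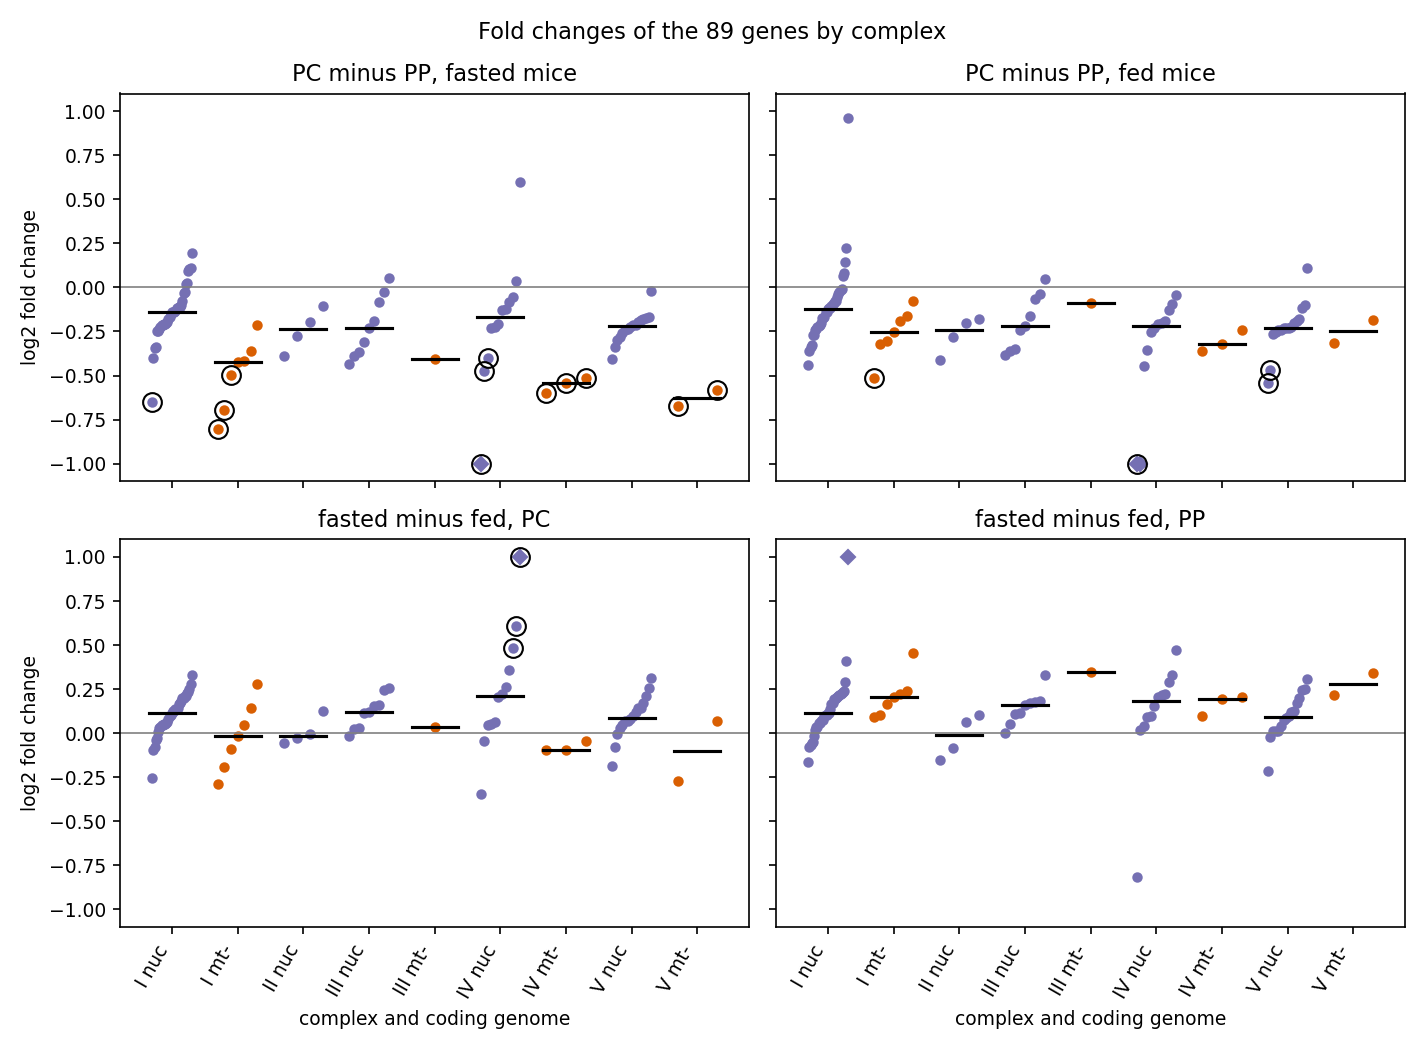
Log2 fold change (vertical axis) of each of the 89 genes, by complex and coding genome (horizontal axis; nuc, nuclear), in 4 comparisons, with nuclear genes in purple and mt- genes in orange. Horizontal bars are medians, black rings mark genes called at an adjusted p under 0.05, and diamonds at the edge are values beyond the axis (Cox5b, Cox7a1 or Ndufa9, all on few counts). In fasted mice the mt- medians of complexes I, IV and V lie below the nuclear ones by zone, and the nuclear medians of complex IV are the highest for fasting in PC cells.

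By complex, the nuclear medians for PC minus PP were close to each other: in fasted mice -0.14 for complex I, -0.24 for II, -0.23 for III, -0.17 for IV and -0.22 for V, and in fed mice -0.12, -0.24, -0.22, -0.22 and -0.23 in the same order. The mt- medians in fasted mice were -0.42 for complex I, -0.54 for IV and -0.63 for V, with -0.41 for mt-Cytb of complex III. In fed mice they were -0.25, -0.32 and -0.25, with -0.09 for mt-Cytb. For fasted minus fed, complex II had medians of -0.02 in PC and -0.01 in PP cells, while complexes I, III, IV and V had nuclear medians of 0.09 to 0.21 in PC and 0.09 to 0.18 in PP cells.

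Promoters of nuclear OXPHOS genes are known for binding sites of the factors NRF1, GABP (an ETS factor), ERR alpha and YY1, and 61 of the 76 genes have an entry in RefSeq's promoter sequences (GRCm38.p6). In the 250 bases before to 30 bases after the start, on both strands, the NRF1 motif (GCGC, any base, then TGCGC) was found in 14 of 61 (23.0%), against 4.57% of all 27025 promoters. The ETS core CCGGAAG was found in 15 of 61 (24.6%), against 8.70% of all. TCAAGGTCA for ERR was found in 1.64% against 0.400%, and AAGATGGC for YY1 in 3.28% against 2.38%. In the members' promoters no match of a motif overlapped another, and 34 of 61 held none of the 4. A match is a run of letters and no bound site. Of the 9 nuclear genes called in a comparison, 8 have an entry, and 1 of these holds a match and 7 hold none. The promoters of the called genes Cox7a1, Atp5g1 and Atp5o are shown with that of Atp5g3, the paralog of Atp5g1 that was not called, with matches in capitals. They lie at chr7:30183921-30184200 (plus strand), chr11:96075602-96075881 (minus), chr16:91931601-91931880 (minus) and chr2:73911297-73911576 (minus).
Cox7a1: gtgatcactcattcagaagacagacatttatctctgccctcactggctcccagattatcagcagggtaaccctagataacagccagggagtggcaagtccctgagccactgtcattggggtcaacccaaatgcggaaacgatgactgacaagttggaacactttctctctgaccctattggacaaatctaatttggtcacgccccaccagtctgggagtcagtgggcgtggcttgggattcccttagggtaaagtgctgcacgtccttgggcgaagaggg
Atp5g1: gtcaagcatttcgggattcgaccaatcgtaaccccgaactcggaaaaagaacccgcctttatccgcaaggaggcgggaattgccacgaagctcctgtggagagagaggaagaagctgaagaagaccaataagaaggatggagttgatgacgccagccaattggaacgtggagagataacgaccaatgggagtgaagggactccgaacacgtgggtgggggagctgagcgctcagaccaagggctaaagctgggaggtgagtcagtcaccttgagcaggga
Atp5o: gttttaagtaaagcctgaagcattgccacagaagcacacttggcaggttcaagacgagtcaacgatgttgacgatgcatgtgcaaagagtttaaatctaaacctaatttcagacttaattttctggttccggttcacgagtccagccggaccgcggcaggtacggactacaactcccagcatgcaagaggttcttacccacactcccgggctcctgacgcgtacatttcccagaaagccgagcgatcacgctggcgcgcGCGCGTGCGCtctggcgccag
Atp5g3: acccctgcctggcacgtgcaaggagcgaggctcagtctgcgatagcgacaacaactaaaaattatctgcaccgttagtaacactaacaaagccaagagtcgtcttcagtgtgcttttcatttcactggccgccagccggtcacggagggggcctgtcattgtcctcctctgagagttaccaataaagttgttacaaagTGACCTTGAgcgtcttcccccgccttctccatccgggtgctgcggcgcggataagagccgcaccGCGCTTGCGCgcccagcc
The Atp5o window holds an NRF1 match, the Atp5g3 window an NRF1 and an ERR match, and the windows of Cox7a1 and Atp5g1 none.

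Genes that encode regulators of the respiratory chain were called higher with fasting in both zones and lower in neither. Of 17 tested, 5 were called higher and 0 lower in fasted PC cells, with a median log2 fold change of 0.37, and 7 higher and 0 lower in fasted PP cells, with a median of 0.22. Of all genes, 11.1% were called higher and 10.2% lower in fasted PC cells, and 8.39% higher and 9.5% lower in fasted PP cells. Ppargc1a, a coactivator of mitochondrial genes that fasting is known to induce in liver, had 17.4, 16.5 and 29.7 CPM in fasted PC libraries, against 7.11, 7.17 and 8.52 CPM in fed PC libraries (1.48 ± 0.40, adjusted p = 0.0226, edgeR). In PP cells it had 29.4, 22.3 and 61.4 CPM in fasted libraries, against 12.6, 8.165 and 16.85 CPM in fed libraries (1.59 ± 0.39, adjusted p = 0.0181, edgeR). All fasted libraries lay above the fed ones. Gabpa, which encodes the DNA-binding subunit of GABP, rose by 0.56 ± 0.12 in fasted PC and 0.52 ± 0.12 in fasted PP cells (adjusted p = 0.00598 and 0.0113, edgeR). Ppargc1b rose in fasted PP cells (1.61 ± 0.28, adjusted p = 0.00231, edgeR), as did Sirt1 (0.72 ± 0.17, adjusted p = 0.0114), and the mitochondrial deacetylase Sirt3 rose in fasted PC cells (0.57 ± 0.11, adjusted p = 0.00407).

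By zone, Esrra, the gene of ERR alpha, was lower in PC cells: it had 46.6, 46.0 and 38.0 CPM in fasted PC libraries, against 66.4, 59.9 and 66.6 CPM in fasted PP libraries (-0.56 ± 0.11, adjusted p = 0.00997, edgeR). In fed mice it was lower by a similar amount (-0.57 ± 0.11, adjusted p = 0.0108, edgeR), and PC and PP libraries did not overlap in either state. Its relative Esrrg was higher in PC cells, by 2.19 ± 0.44 in fasted and 2.26 ± 0.48 in fed mice (adjusted p = 0.0106 and 0.0174, edgeR). Esrrg had 10.4, 8.91 and 12.2 CPM in fasted PC, against 1.60, 4.44 and 0.821 CPM in fasted PP libraries. In fed mice it had 4.01, 4.31 and 3.09 CPM in PC, against 0.810, 0.845 and 0.728 CPM in PP libraries, a low level. Ppargc1b was lower in PC cells of fasted mice (-1.62 ± 0.28, adjusted p = 0.00438, edgeR). Among the 17, 1 was called higher and 2 lower in fasted mice (medians over the list 0.06), and 1 higher and 1 lower in fed mice (-0.01). The shares over all genes were 3.35% higher and 3.05% lower in fasted mice, and 2.24% higher and 2.47% lower in fed mice. Nrf1, Tfam, which packages and transcribes mitochondrial DNA, and the mitochondrial RNA polymerase Polrmt were not called in any comparison; their zone values in fasted mice were -0.21 ± 0.16, 0.13 ± 0.10 and -0.06 ± 0.13.

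Calls on genes acting on mitochondrial DNA and RNA are given beside the shares of all genes called. With fasting these shares were 11.1% higher and 10.2% lower in PC cells, and 8.39% higher and 9.5% lower in PP cells. By zone they were 3.35% higher and 3.05% lower in fasted mice, and 2.24% higher and 2.47% lower in fed mice. In the list of 18 for mitochondrial DNA maintenance and transcription, 0 were called by zone in either state, 1 higher and 1 lower in fasted PC cells, and 1 higher and 2 lower in fasted PP cells. Polg2, the accessory subunit of the mitochondrial DNA polymerase, rose (0.56 ± 0.14 in PC and 0.99 ± 0.14 in PP cells), and the nuclease Mgme1 fell (-1.03 ± 0.19 and -0.88 ± 0.19), while the helicase Twnk fell in PP cells (-0.94 ± 0.16). Among 17 genes for processing and stability of mt- RNA, 2 were called by zone in fasted mice and 0 in fed mice. Both of these were lower in PC cells: Fastkd1 had 17.7, 15.9 and 16.6 CPM in fasted PC libraries, against 22.7, 24.2 and 29.3 CPM in fasted PP libraries (-0.60 ± 0.13, adjusted p = 0.0174, edgeR), and Fastk was at -0.50 ± 0.13 (adjusted p = 0.0362). For fasting, 1 rose and 3 fell in PC cells and 1 rose and 2 fell in PP cells; Grsf1, a protein of mitochondrial RNA granules, rose in both (0.48 ± 0.09 and 0.33 ± 0.09), and Fastkd5 fell in both (-0.80 ± 0.19 and -0.99 ± 0.19).

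Assembly factors gave 0 calls by zone in either state, for 17 genes of complex I assembly and 38 of complexes II to V. By zone, 3.35% of all genes were called higher and 3.05% lower in fasted mice, and 2.24% and 2.47% in fed mice. In fasted PC cells 1 complex I assembly gene rose (Dmac2, 1.13 ± 0.17) and 2 fell (Ndufaf4, -0.73 ± 0.12, and Tmem186, -0.61 ± 0.18), and in fasted PP cells Dmac2 rose (0.82 ± 0.17) and Ndufaf4 fell (-0.56 ± 0.12). Of the 38, 1 rose and 4 fell in fasted PC cells and 1 rose and 2 fell in fasted PP cells, where 11.1% of all genes rose and 10.2% fell with fasting in PC cells, and 8.39% rose and 9.5% fell in PP cells. Sco2, a copper chaperone of complex IV, rose in both zones (1.01 ± 0.27 in PC and 0.93 ± 0.26 in PP cells), and Cox15, which makes heme A, fell in both (-0.38 ± 0.11 and -0.42 ± 0.11). Their medians for fasting were -0.16 in PC cells for both lists, and -0.11 for complex I and -0.13 for the others in PP cells, while those of the nuclear subunits were above 0.

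Among 23 genes for electron carriers and other electron donors, 1 was lower in fasted PC than in fasted PP cells: Sqor, which feeds electrons of sulfide to ubiquinone (-0.64 ± 0.18, adjusted p = 0.0480, edgeR). The share of all genes called lower there was 3.05%. In fasted cells 1 of the 23 was higher and 1 lower in each zone, against the fasting shares of all genes given for the assembly factors. Gpd2, the mitochondrial glycerol-3-phosphate dehydrogenase, fell in PC cells (-1.46 ± 0.35) and the choline dehydrogenase Chdh in PP cells (-0.42 ± 0.11). Of 10 genes tested for mitochondrial carriers and uncoupling, Slc25a51, the mitochondrial NAD carrier, was called in all 4 comparisons. It had 64.9, 58.1 and 85.03 CPM in fasted PC libraries, against 97.4, 119.6 and 141.0 CPM in fasted PP libraries (-0.78 ± 0.17, adjusted p = 0.0148, edgeR), and 38.7, 29.6 and 34.3 CPM in fed PC libraries, against 68.9, 84.1 and 80.6 CPM in fed PP libraries (-1.19 ± 0.17, adjusted p = 0.00142). It rose with fasting by 1.02 ± 0.17 in PC and 0.62 ± 0.17 in PP cells, and the pyrimidine nucleotide carrier Slc25a33 rose by 1.51 ± 0.27 and 1.11 ± 0.28. No other gene of this list was called. Among the list genes named here, the calls on Ppargc1b, Gabpa, Sirt3, Sirt1, Mgme1, Twnk, Dmac2, Ndufaf4 and Fastkd5 held in all 20 alternative settings, as did those on Esrra in fasted mice, on Polg2 in PP cells, on Grsf1 and Slc25a33 in PC cells, and on Slc25a51 in fed mice and for fasting in PC cells. The other calls were each lost without at least 1 library, and those on Fastk and Sqor in 10 and 13 of 20 settings.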

How the data were processed

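The deposited table gives estimated counts per Ensembl gene for 12 libraries, made by the authors with kallisto 0.46.0 on mm10, per the submitters' processing notes; the annotation is not given in the sources used here. Symbols came from GENCODE M21 for 27566 of 28030 identifiers. Estimated counts were rounded and fitted with edgeR 4.0.16 in R 4.3.3 (low-count filter of filterByExpr, TMM, 4 group means, robust quasi-likelihood, 8 residual degrees of freedom, biological coefficient of variation 0.2055), with Benjamini-Hochberg adjustment over 12086 genes and a threshold of 0.05. Log2 fold changes are unshrunk, with SE from the F statistic. The fit was tested on simulated data with changes larger than the median changes of the members, so changes of that smaller size were not simulated. DESeq2 1.42.0 was an alternative.

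Genes named are all mt- genes, nuclear members called anywhere, the 2 highest and 2 lowest per comparison at 5 CPM or more, core subunits, tissue isoforms, and in other lists up to 3 called per direction and 6 fixed regulators. Members and lists were chosen with earlier results of these data known. Replicate numbers were not taken to pair libraries, since the labels do not say whether libraries of the same number share a mouse. Counting error and library spread set the precision. The labels call replicates biological. Not every gene that entered the counts is reported here by name.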

Additional observations from a re-analysis of the deposited data

How the results depend on the processing

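Across 159 gene results, 2775 values kept their direction and side of the threshold under the alternatives, 66 changed sign without a call on either side, 307 lost the call, 13 gained it and 0 reversed a call; the causes were not tested. With DESeq2, nuclear calls were 10 by zone in fasted mice, 8 by zone in fed mice, 6 for fasting in PC and 4 for fasting in PP, and mt- calls for fasting in PP were 2. The shares of all genes that DESeq2 called are given with those comparisons above. With only the groups compared, which leaves fewer libraries, nuclear calls were 0, 5 and 6 in the first 3 comparisons, with a nuclear median of 0.094 for fasting in PC, and mt- calls by zone in fasted mice were 2. With library totals in place of TMM, nuclear calls by zone in fasted mice were 2, nuclear medians were -0.12 by zone in fed mice and 0.039 for fasting in PC, and the fed PC nuclear sum was 10656 CPM. Without a filter on low counts, which tests more genes, calls by zone in fasted mice were 2 nuclear and 5 mt-. Scaling without mt- genes gave a nuclear median of 0.10 for fasting in PC, 1 mt- call for fasting in PP, nuclear sums of 11896 CPM in fasted PC, 11081 CPM in fed PC and 12623 CPM in fed PP, and mt- sums of 108375 CPM in fasted PP, 78827 CPM in fed PC and 94692 CPM in fed PP. RLE size factors gave 1 mt- call for fasting in PP.

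Leaving out each library in turn, nuclear calls were 0 to 6 by zone in fasted mice, 0 to 4 in fed mice, 1 to 5 for fasting in PC, 0 to 3 for fasting in PP and 0 to 0 for the interaction, with medians of -0.25 to -0.10, -0.23 to -0.13, 0.074 to 0.13, 0.02 to 0.19 and -0.09 to 0.06. The mt- calls were 2 to 9, 0 to 1, 0 to 1, 0 to 1 and 0 to 0 in the same order, with medians of -0.58 to -0.41, -0.29 to -0.18, -0.12 to 0.04, 0.17 to 0.28 and -0.34 to -0.15. Leaving out fasted PC and fasted PP replicate 1 together, chosen after seeing the data, gave nuclear calls of 1 by zone in fasted mice, 6 in fed mice and 5 for fasting in PC (median 0.09), and mt- calls of 5 by zone in fasted mice and 1 for fasting in PC.

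Whether PC and PP libraries with the same number share a mouse is not given in the labels. Correlations of the deviations of same-number libraries ran from -0.115 to 0.269, with 3 of 18 pairs over 0.1. All 3 were among the 6 PC and PP pairs of one feeding state, of which 5 were positive, and 4 of 6 PC libraries correlated best with the PP library of their own number. With the number as a replicate block, nuclear calls were 5 by zone in fed mice and 2 for fasting in PP, and mt- calls were 1 for fasting in PP; by zone in fasted mice Cox5a and Cox7a1 lost the call and Uqcrh gained it, and no other count of members called moved by over 1.5 times. Genes under about 1 CPM are limited by depth.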

Other observations

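Some entries near the OXPHOS genes held counts that the member entries lacked. Atp5g2, a gene of ATP synthase subunit c, was listed at 0 in every library, and Gm10175, annotated as a transcribed processed pseudogene that shares 37.5% of the 31-base words of Atp5g2, was at 84.9 to 141.8 CPM. Its levels were 116.8, 112.8 and 108.1 CPM in fasted PC, 141.8, 108.8 and 103.7 CPM in fasted PP, 94.6, 99.6 and 86.4 CPM in fed PC and 100.5, 104.6 and 84.9 CPM in fed PP libraries. Ndufb4c, annotated as a processed pseudogene, shares 19.1% of the words of Ndufb4 and was at 21.5 to 30.2 CPM. Whether such entries took reads of the member genes was not tested.

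Mitochondrial ribosomal proteins, whose ribosomes translate the mt- mRNAs, gave 0 calls by zone among 76 genes tested in either state. By zone, 3.35% of all genes were called higher and 3.05% lower in fasted mice, and 2.24% and 2.47% in fed mice. With fasting 2 rose and 4 fell in PC cells and 3 rose and 4 fell in PP cells, and the list medians were -0.02 and -0.03. Of all genes, 11.1% rose and 10.2% fell with fasting in PC cells, and 8.39% rose and 9.5% fell in PP cells. Mrps26 rose in both zones (0.62 ± 0.12 in PC and 0.41 ± 0.13 in PP cells, log2 fold change ± SE), Mrps18b fell in both (-0.34 ± 0.10 and -0.36 ± 0.10), and Mrpl15 fell in PP cells (-0.43 ± 0.09). In PC cells Mrpl15 had 63.2, 63.0 and 61.2 CPM in fasted libraries, against 72.8, 70.1 and 72.3 CPM in fed libraries. The Mrps26 call in PP cells was lost in 12 of 20 alternative settings and the Mrps18b calls in 4 of 20 in PC and 6 of 20 in PP cells; those on Mrps26 in PC cells and Mrpl15 held in all 20.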
